A study of Mus musculus with 4 samples.

Results

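The cytosolic ribosomal proteins are the structural proteins of the ribosome outside the mitochondria, and their messenger RNAs were followed in mouse muscle with and without loss of Nf1. Genes were chosen by name alone: those whose symbol starts with Rpl or Rps and a digit, the stalk genes Rplp0, Rplp1 and Rplp2, and Rpsa, leaving out the ribosomal S6 kinases. The rule found 95 names, and 88 of them had a value above 0 in at least 1 library, out of 18959 names in all with such a value. Of the 88 members, 42 encode proteins of the large subunit, 3 the stalk and 29 the small subunit, and these 74 are called core members here. The other 14 were 6 paralogues, 7 pseudogenes or retrogenes, and Rps19bp1, a nucleolar partner of Rps19 that is not a ribosomal protein. Paralogues here are genes named as relatives of a core gene, among them Rps4l, which GENCODE annotates as a transcribed processed pseudogene. The other 7 names were listed at 0 in all 4 libraries, among them Rpl10l, Rpl34-ps1, Rpl36al, Rps23, Rps27rt and Rps4x.

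RNA came from the tibialis anterior, a fast muscle at the front of the lower leg, of C57BL/6 mice at postnatal day 21. Nf1 encodes neurofibromin, which switches off the GTPase Ras. The Nf1-KO group (Nf1flox/flox/Myf5+, 2 libraries) had both Nf1 alleles floxed and the Het group (Nf1flox/+/Myf5+, 2 libraries) only 1, so the controls were not wild type. The labels write Myf5+ for both groups and name no Cre, and Myf5 itself is a gene of muscle precursor cells. They do not say whether the 2 libraries of a group came from separate animals, and p-values therefore measure the spread between these libraries, which may be technical. Values are RPKM, reads scaled to gene length and library size, which over all rows summed to between 532315 and 547144 per library.

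A ribosome is built from ribosomal RNA and from near-equal numbers of copies of the core proteins, so cells make these proteins in matched amounts. Many of their messenger RNAs begin with a terminal oligopyrimidine (TOP) tract, a run of C and T at the transcript start, through which growth signals such as mTORC1 set how strongly they are translated. In skeletal muscle, ribosome number is one of the determinants of how much protein a growing fibre can make. A few core proteins have a second gene used in special tissues, and Rpl3l, which replaces Rpl3 in skeletal and heart muscle, is the best known of these.

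The transcript starts are shown because a pyrimidine run there, which the name rule did not use, was found in many but not all core members. RefSeq start sites on GRCm38.p6 were found for 55 of the 74 core members, while the authors' files name mouse build mm9, so no measured value was read by coordinate. The 50 bases centred on the start, 25 on each side, are shown for 6 core members that are described below or carry a long tract, and for the muscle paralogue Rpl3l. Capitals mark each run of at least 8 C or T, read 5′ to 3′ on the strand of the gene.
Rps6 (chr4:86857343-86857392, minus strand): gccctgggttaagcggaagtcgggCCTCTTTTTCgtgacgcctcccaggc
Rpl28 (chr7:4792940-4792989, plus strand): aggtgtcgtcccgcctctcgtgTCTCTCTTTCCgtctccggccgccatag
Rpl38 (chr11:114668555-114668604, plus strand): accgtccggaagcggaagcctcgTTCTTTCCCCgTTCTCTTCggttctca
Rplp2 (chr7:141447626-141447675, plus strand): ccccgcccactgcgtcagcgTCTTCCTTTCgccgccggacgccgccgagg
Rpl15 (chr14:18270962-18271011, minus strand): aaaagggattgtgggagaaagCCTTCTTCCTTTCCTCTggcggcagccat
Rps12 (chr10:23787185-23787234, minus strand): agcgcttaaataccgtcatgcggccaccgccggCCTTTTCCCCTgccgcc
Rpl3l (chr17:24727801-24727850, plus strand): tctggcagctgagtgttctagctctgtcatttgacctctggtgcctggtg

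A run of at least 8 C or T lay in this window in 30 of the 55 core members (54.5%), against 22.3% of the 27025 genes in the same RefSeq table. Runs of A or G of the same length, the same search on the other pair of letters, were found in 9.09% of core members and 24.4% of all genes. The runs in Rpl28, Rpl38, Rpl15, Rplp2 and Rps6 span the centre of the window, and that of Rps12 lies after it. Rpl3l had no run longer than 5 in this window, and the table lists 2 starts for it. The motif CGGAAG, which ETS family factors such as GABP bind, was found on either strand of the longer RefSeq promoter window in 40 of the 55 core members (72.7%) and in 18.8% of all genes. Such matches describe the letters in these windows and do not show a site in use. All genes here are every gene of that table, not matched to the core members by level or promoter type. Whether these shares are particular to ribosomal protein genes was therefore not tested.

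Nearly all core members that could be tested were higher in the Nf1-KO libraries, each by a small amount. Of 68 core members tested, 66 passed an adjusted p of 0.05 as higher, 1 (Rpl10) as lower, and 1 (Rps26) did not pass. Among the 10690 genes tested, 24.9% passed as higher and 25.4% as lower. The median log2 fold change of the core members was 0.25, which is 19.1% higher, and that of all genes tested was 0.00. The middle 50% of core members lay between 0.20 and 0.34 on the log2 scale. Over all 80 members tested, including paralogues and pseudogenes, 69 rose, 3 fell and 8 did not pass. Fold changes are on the log2(RPKM + 1) scale after scaling of the libraries, and tests are by limma with Benjamini-Hochberg adjustment over all genes tested. Without scaling, 35.2% of all genes passed as higher, and 66 core members passed as higher with 0 lower.

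**Figure D1:**
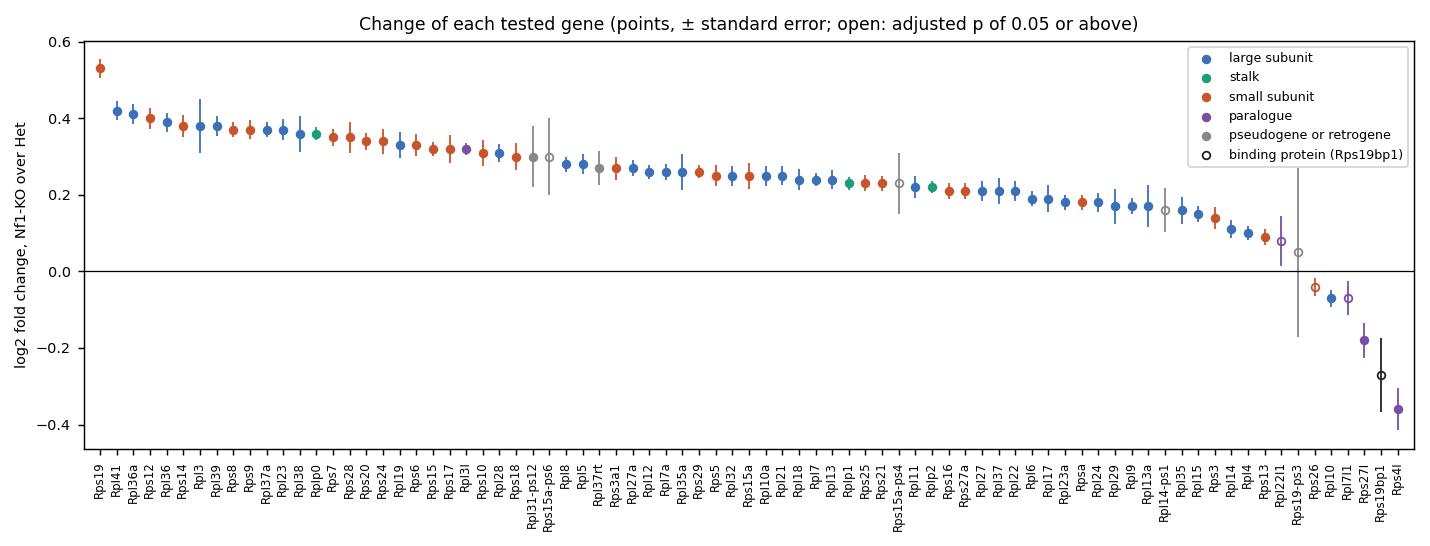
Log2 fold change of Nf1-KO over Het (vertical axis) for 79 of the 80 tested members in order of size, coloured by class, with standard errors. Filled points passed an adjusted p of 0.05: 68 lie above 0, and Rpl10, Rps27l and Rps4l lie below it.

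The order of the libraries was read from the RPKM as deposited. Both Nf1-KO libraries lay above both Het libraries in 67 of the 68 core members, with Rpl10 the exception, where 49.8% of all genes tested had that order. All members together took 1.93% and 1.89% of the summed RPKM over all gene names in the Het libraries, and 2.37% and 2.39% in the Nf1-KO libraries. The groups did not overlap, and the difference was 0.468 percentage points. An exact two-sided permutation test gave p = 0.333, the smallest that 2 libraries against 2 allow. Leaving the 20 most abundant genes out of the sum, the shares were 4.27% and 4.24% in Het, and 4.95% and 5.01% in Nf1-KO.

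In the authors' deposited table, which has 13985 genes, 15.0% passed an adjusted p of 0.05 as higher. It holds 83 of the members, of which 62 passed as higher and 0 as lower, and the median of their log2 fold changes was 0.24. Of the 72 members that passed here, 62 passed there in the same direction. The 10 that passed only here included Rpl10, Rpl13a, Rpl29, Rpl31-ps12, Rpl35, Rpl37rt, Rps13, Rps27l and Rps4l. They hold all 3 members that fell and several with small rises.

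Markers of the muscle fibre and of several other cell types also differed between the same groups. Among all genes tested, 24.9% passed as higher and 25.4% as lower. Summed RPKM of 12 muscle fibre markers, among them Ckm and Acta1, was 72793 and 73064 in Het and 58824 and 58599 in Nf1-KO, with 9 of the 12 lower and 3 higher. Immune markers summed to 17.5 and 16.8 in Het and to 43.1 and 42.6 in Nf1-KO, with all 8 that were tested higher, while Adgre1, the macrophage marker F4/80, was listed at 0 under both of its names. The 7 tested Schwann cell markers were all higher (sums of 16.1 to 16.4 in Het and 35.4 to 37 in Nf1-KO). Of 8 fibroblast markers 6 were higher (100 to 103 and 153), and of 8 endothelial markers 3 were higher and 1 lower (94.6 to 95.3 and 104 to 105). Satellite cell markers had 2 of 6 higher (23.1 to 24 and 26.8 to 28), and neither of the 2 tested proliferation markers passed (12.5 to 12.7 and 13.9 to 15.5). Each sum covers every listed name, tested or not: 13 immune, 8 Schwann cell, 8 satellite cell and 10 proliferation names. With so few genes, the endothelial and satellite cell counts are near the shares of all genes. Without scaling, 5 of the 6 satellite cell markers and 1 of the 2 proliferation markers passed as higher, beside 35.2% of all genes. With no filter 0 of 8 and 0 of 10 did, beside 11.7% of all genes, by limma in each case. Also with no filter, 8 of 11 immune, 5 of 8 Schwann cell, 5 of 8 fibroblast and 1 of 8 endothelial markers were higher. Of these lists, only the endothelial one had a lower marker, 1 of 8. The satellite cell count was 1 at a pseudocount of 0.1. Blood markers summed to under 2 RPKM in every library, with 5 of their 8 names listed at 0. Their part in the ribosomal protein results was not tested, and in whole muscle more cells of a type and more RNA per cell cannot be told apart. Nf1 itself was 1.09 and 1.01 RPKM in Het and 0.89 and 0.85 in Nf1-KO (log2 fold change -0.18, SE 0.057, limma adjusted p = 0.041). The difference was small, and at this low level the added 1 of the log2(RPKM + 1) scale shrinks the log2 fold change. The deleted exons cannot be separated in a value per gene.

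The stalk is the flexible arm of the large subunit that recruits elongation factors, and its 3 genes were the most abundant core members per length. Rplp1 stood at 432.28 and 431.76 RPKM in Het and at 535.07 and 543.64 in Nf1-KO. Rplp0, the base of the stalk, was 333.14 and 328.85 in Het and 453.17 and 455.51 in Nf1-KO, and Rplp2 was 282.21 and 283.17 in Het and 351.5 and 352.87 in Nf1-KO. Both Nf1-KO libraries were above both Het libraries for all 3. In order of level, Rplp2 and the next gene, Rpl23a (282.79 and 275.88 in Het), overlapped in the Het libraries. The log2 fold change was 0.36 (SE 0.017, limma adjusted p = 1.5e-05) for Rplp0, 0.23 (SE 0.017) for Rplp1 and 0.22 (SE 0.016) for Rplp2, the latter 2 at adjusted p = 0.00011.

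**Figure D2:**
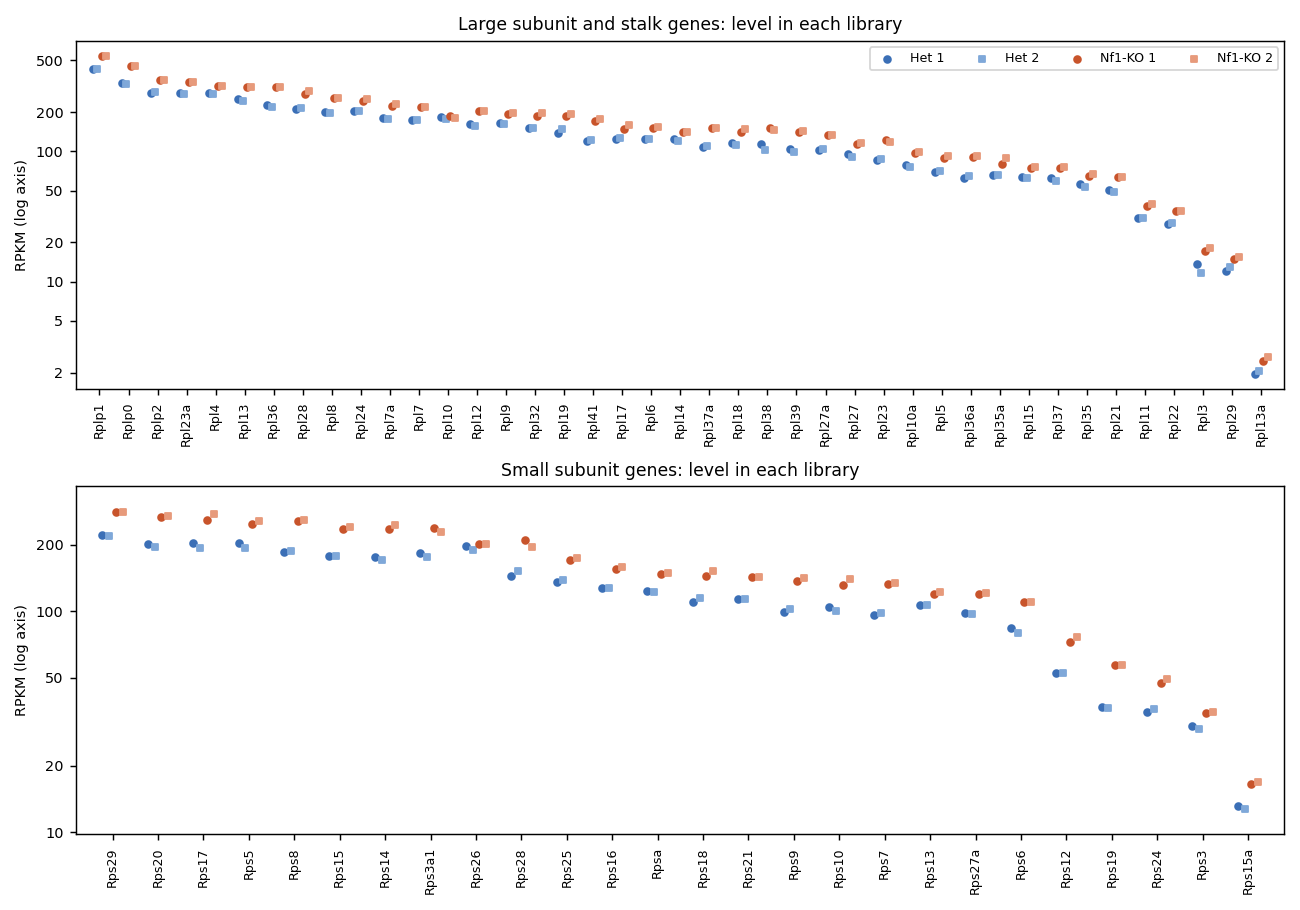
RPKM on a log axis in each of the 4 libraries for 67 of the 68 tested core members, ordered by mean, with the large subunit and stalk above and the small subunit below. Nf1-KO points sit above Het points for every gene except Rpl10, and levels run from Rplp1 at 432 to 544 RPKM down to Rpl13a at about 2.

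The mean RPKM of the tested core members ran from 2.28 to 486, with a median of 134. By comparison, the median over all genes tested was 4.15. Rpl13a, a protein also known for binding and silencing inflammatory messenger RNAs, was the lowest at 1.95 and 2.06 RPKM in Het and 2.47 and 2.63 in Nf1-KO. Next came Rpl29 (12.04, 12.96, 14.83 and 15.53 in the same order) and Rps15a (13.23, 12.72, 16.53 and 16.87). All 3 were higher in both Nf1-KO libraries, with log2 fold changes of 0.17, 0.17 and 0.25. For Rpl13a limma's adjusted p was 0.04, and the call was lost whichever 1 of the 4 libraries was left out. For Rpl29 the row used was a second copy of the name, and the row without that suffix gave 0.07 and did not pass, nor did Rpl29 without Het replicate 1 (0.12) or Nf1-KO replicate 2 (0.15).

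These levels depend on how reads were assigned, because ribosomal protein genes have many processed pseudogenes with nearly the same sequence. In GENCODE M21, the share of 50-base words found in no other gene's transcript was 4.9% to 100% in the tested core members (median 41.3%). Among the core names, 9 could not be tested. Some, such as Rps23 and Rps4x, were listed at 0, and Rpl26, Rpl30, Rpl31, Rpl34, Rps2 and Rps27 had under 0.5 RPKM in at least 3 libraries. These 9 are core proteins of the ribosome, so a listed value near 0 is not read as an absent transcript. Their unique share was 1.4% to 64.7% (median 27.8%). By this share, 24 of the 25 core members with at least 50% unique words rose (median log2 fold change 0.26). Below 50%, 42 of the 43 tested rose (median 0.25), and among all genes tested 24.9% did. The part of read assignment in these changes was not tested.

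Across the 68 tested core members, the log2 fold change had a Pearson correlation of 0.03 with the unique share, 0.01 with log2 mean RPKM and -0.16 with log2 transcript length. These are across genes of the same 4 libraries, which are not independent replicates. The order of levels between genes also rests on the lengths the authors used. Mean normalized counts in the authors' deposited table per RPKM ranged from 15.6 (Rps28) to 243 (Rps15a) among the core members, with a median of 36.7. Rps15a, Rps24 (207) and Rps3 (201) thus held many more reads than their RPKM would give a gene of typical length. For instance, the authors' mean count was 3599 for Rps15a at 14.8 RPKM and 2744 for Rps28 at 176 RPKM. The ratio of RPKM between groups within a gene does not depend on that length. The log2(RPKM + 1) change does so through the added 1, mainly in low genes: for Rpl13a it was 0.17, and 0.24 with 0.1 added instead.

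In the large subunit, 37 of 38 tested genes rose and 1 fell (24.9% and 25.4% of all genes), with a median log2 fold change of 0.24. Rpl41, the smallest ribosomal protein, was 120.45 and 122.86 RPKM in Het and 171.11 and 176.53 in Nf1-KO. The groups were well apart, and its log2 fold change of 0.42 (SE 0.024, limma adjusted p = 3.6e-05) was the highest of this subunit. Rpl36a followed at 0.41, from 62.91 and 65.09 to 90.46 and 91.9 RPKM, and Rpl36 at 0.39, from 228.51 and 218.15 to 313.41 and 310.21. Only 14.5% of the words of Rpl36a and 18.9% of those of Rpl36 were unique, so reads of their pseudogenes may be part of these values.

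Rpl5 and Rpl11 form a particle with 5S ribosomal RNA and, when ribosome assembly stalls, bind and inhibit Mdm2, the ubiquitin ligase for p53. Rpl5 was 68.93 and 70.52 RPKM in Het and 88.96 and 91.71 in Nf1-KO, a log2 fold change of 0.28 (SE 0.026, limma adjusted p = 0.00028). Rpl11 was 30.73 and 30.9 in Het and 37.75 and 39.21 in Nf1-KO, a change of 0.22 (SE 0.029, limma adjusted p = 0.0012). Both genes rose by about as much as the median core member. Rpl38, which is needed for translation of some Hox messenger RNAs in the embryo, was 113.54 and 103.03 in Het and 152.09 and 145.15 in Nf1-KO. Its change of 0.36 (SE 0.047, limma adjusted p = 0.0013) had a wider error, since its libraries differed more within each group.

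The smallest rises in this subunit were those of Rpl4 and Rpl14. Rpl4 was 282.08 and 276.19 RPKM in Het and 319.48 and 317.61 in Nf1-KO, a log2 fold change of 0.10 (SE 0.019, limma adjusted p = 0.0064). Rpl14 was 123.89 and 119.9 in Het and 139.88 and 141.03 in Nf1-KO, a change of 0.11 (SE 0.023, limma adjusted p = 0.0085). The groups were separate in both genes. Rpl4 did not pass without the variance trend, and Rpl14 did not pass without the trend or without the filter on low values.

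Rpl10, which completes the large subunit late in its assembly, was the exception. It was 182.12 and 177.84 RPKM in Het and 185.44 and 181.5 in Nf1-KO. The groups overlapped as deposited, and after scaling the log2 fold change was -0.07 (SE 0.022, limma adjusted p = 0.046). Without scaling it was 0.03 with an adjusted p of 0.33, so its direction depends on the scaling. With 1 library left out it passed only without Het replicate 2. Of its words 7.9% were unique.

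In the small subunit, 26 of 27 tested genes rose and 0 fell, beside 24.9% and 25.4% of all genes, and the median log2 fold change was 0.30. Rps19, the gene most often mutated in Diamond-Blackfan anaemia, was 37.14 and 36.6 RPKM in Het and 56.97 and 57.54 in Nf1-KO. No core member rose more: its log2 fold change was 0.53 (SE 0.024, limma adjusted p = 1.4e-05), or 44.3% higher. The authors' deposited table gives 0.53 for the same gene. Rps12 was next in this subunit, at 52.54 and 52.63 in Het and 72.83 and 76.25 in Nf1-KO (log2 fold change 0.40, SE 0.028, limma adjusted p = 8.5e-05), though only 9.9% of its words were unique.

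Rps6, the substrate of the S6 kinases downstream of mTORC1, was 84.43 and 80.1 RPKM in Het and 110.8 and 110.76 in Nf1-KO. Its log2 fold change was 0.33 (SE 0.029, limma adjusted p = 0.00021), and it had a pyrimidine run at its start, as printed above. Rpsa, which also serves as a laminin receptor, was 123.65 and 122.76 in Het and 148.05 and 149.82 in Nf1-KO (0.18, SE 0.019). Rps27a, made as a fusion with ubiquitin, was 98.16 and 96.99 in Het and 119.47 and 121.09 in Nf1-KO (0.21, SE 0.02). Rps3, which also acts in DNA repair, was 30.22 and 29.27 in Het and 34.84 and 35.22 in Nf1-KO (0.14, SE 0.028). In each of these genes the groups were separate and limma's adjusted p was at most 0.0077.

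At the low end, Rps13 was 106.44 and 107.12 RPKM in Het and 119.97 and 123.15 in Nf1-KO, a log2 fold change of 0.09 (SE 0.022, limma adjusted p = 0.014). The groups were separate, but it did not pass without the filter, without the trend or without Het replicate 1 (0.08). Rps26 was 197.28 and 190.09 in Het and 201.75 and 201.1 in Nf1-KO. Although both of its Nf1-KO values were above both Het values, the log2 fold change was -0.04 after scaling (SE 0.023, limma adjusted p = 0.22) and 0.06 without scaling. It was thus the core member with no call in either direction.

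The summed RPKM of the large subunit and stalk was 1.66 times that of the small subunit in both Het libraries and 1.63 times in both Nf1-KO libraries. That ratio was slightly lower in both Nf1-KO libraries, and the exact permutation p was 0.333, the smallest possible. The sums themselves rose from 5676 and 5603 to 7108 and 7197 RPKM for the large subunit and stalk, and from 3421 and 3381 to 4354 and 4415 for the small subunit. Replicates were close, with a median coefficient of variation over the core members of 1.68% in Het and 1.23% in Nf1-KO. Rpl3 varied most in Het (11.4%) and Rpl35a in Nf1-KO (7.51%).

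Of 5 paralogues tested, 1 rose, 2 fell and 2 did not pass. With so few genes, these counts are near the 24.9% higher and 25.4% lower of all genes. Rpl3l, the muscle form of Rpl3, was 266.5 and 267.11 RPKM in Het and 356.16 and 357.83 in Nf1-KO. Rpl3 itself was 13.56 and 11.53 in Het and 17.18 and 18.12 in Nf1-KO. Both genes were higher in both Nf1-KO libraries, with a log2 fold change of 0.32 (SE 0.016, limma adjusted p = 2.3e-05) for Rpl3l and 0.38 (SE 0.071, limma adjusted p = 0.0059) for Rpl3. Rpl3l was 19.7 and 23.2 times Rpl3 in Het and 20.7 and 19.7 times in Nf1-KO. The muscle form thus stayed the more abundant one in every library, and the ratio overlapped between groups (exact permutation p = 1). All words of Rpl3l were unique (100%), against 14.4% for Rpl3, so the level of Rpl3 is the less certain of the pair. Rpl3 did not pass without the filter on low values (0.36).

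**Figure D3:**
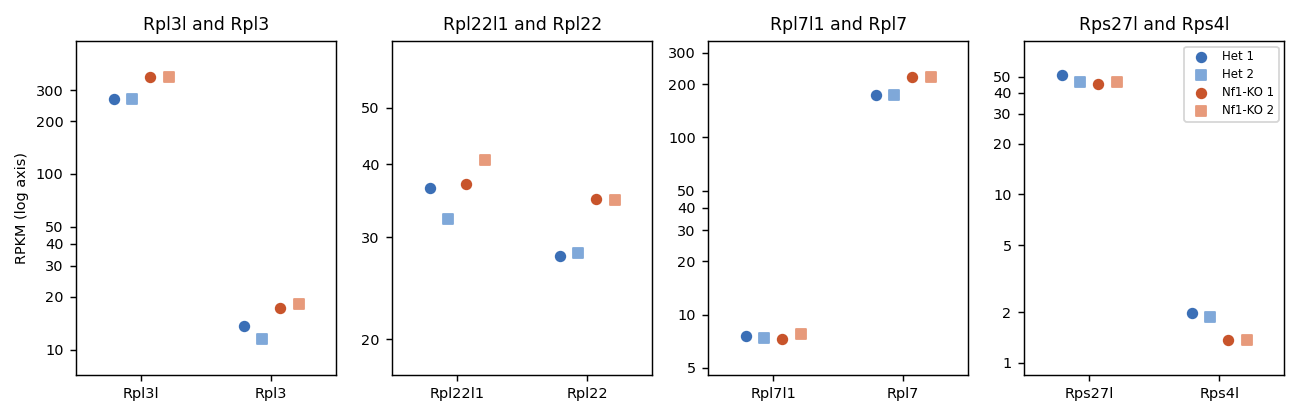
RPKM on a log axis in each library for 3 paralogue pairs and, at the right, for Rps27l and Rps4l, whose partners could not be tested. Rpl3l and Rpl3 are both higher in Nf1-KO, Rpl7 rises while Rpl7l1 stays between 7.32 and 7.81, and Rps4l falls from about 1.9 to about 1.4.

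Rpl7l1, a Rpl7-like protein of nucleolar precursors of the large subunit, was 7.61 and 7.41 RPKM in Het and 7.32 and 7.81 in Nf1-KO, and the groups overlapped. Its log2 fold change was -0.07 (SE 0.045, limma adjusted p = 0.21) and 0.01 without scaling. Its partner Rpl7 was 174.09 and 173.65 in Het and 218.95 and 219.43 in Nf1-KO (log2 fold change 0.24, limma adjusted p = 1e-04). The Rpl7l1 to Rpl7 ratio was therefore lower in both Nf1-KO libraries (0.0437 and 0.0427 in Het, 0.0334 and 0.0356 in Nf1-KO), with an exact permutation p of 0.333. Rpl22l1 was 36.4 and 32.28 in Het and 36.96 and 40.77 in Nf1-KO, and its log2 fold change of 0.08 (SE 0.066, limma adjusted p = 0.34) became -0.01 when the second Het library was left out. Its ratio to Rpl22 was 1.31 and 1.15 in Het and 1.06 and 1.17 in Nf1-KO, with overlap (exact permutation p = 0.667). Over the 3 ratios, every Benjamini-Hochberg adjusted permutation p was 1.

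The 2 paralogues that fell could not be set beside a partner, since Rps27 and Rps4x were among the names near or at 0. Rps27l, a p53 target gene, was 50.99 and 46.44 RPKM in Het and 45.16 and 46.45 in Nf1-KO. Its groups overlapped narrowly, and the log2 fold change was -0.18 (SE 0.045, limma adjusted p = 0.018), which did not pass without scaling (-0.09, adjusted p = 0.16), without the filter on low values or without the variance trend. Rps4l, which GENCODE annotates as a transcribed processed pseudogene, was 1.98 and 1.86 in Het and 1.36 and 1.37 in Nf1-KO. Both Nf1-KO libraries were lower, and the log2 fold change was -0.36 (SE 0.055, limma adjusted p = 0.0023). At this low level the size depends on the pseudocount: it was -0.55 with 0.1 added in place of 1, and the authors' deposited table gives -0.60 (adjusted p = 0.17). Rpl39l, known from testis, was at most 0.03 RPKM and was not tested.

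Of the pseudogenes and retrogenes, 2 of 6 tested rose (33.3%, beside 24.9% of all genes) and none fell. Rps4l, which fell, is counted with the paralogues and is not among these 6. Rpl31-ps12 was 5.03 and 6 RPKM in Het and 7.16 and 7.75 in Nf1-KO (log2 fold change 0.30, SE 0.079, limma adjusted p = 0.021), and Rpl37rt was 11.95 and 11.09 in Het and 14.8 and 15.34 in Nf1-KO (0.27, SE 0.044, limma adjusted p = 0.003). Both groups were separate in these 2 genes, whose reads cannot be told with certainty from those of the parent genes. Rps15a-ps6 (0.30, adjusted p = 0.055) and Rpl14-ps1 (0.16, adjusted p = 0.054) lay just outside the threshold, and Rpl13a (0.17, adjusted p = 0.04) and Rpl10 just inside it. Rps19bp1 was 5.3 and 4.43 in Het and 4.51 and 3.74 in Nf1-KO, with overlap (log2 fold change -0.27, SE 0.097, limma adjusted p = 0.058).

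Fau, a ubiquitin-like protein made as a fusion with Rps30, lies outside the name rule. It was 68.65 and 68.62 RPKM in Het and 88.48 and 97.09 in Nf1-KO. Both Nf1-KO libraries were higher, with a log2 fold change of 0.33 (SE 0.042, limma adjusted p = 0.0011). Gnb2l1, the Rack1 protein on the head of the small subunit, was 111.15 and 105.83 in Het and 138.4 and 141.44 in Nf1-KO, a change of 0.27 (SE 0.028, limma adjusted p = 0.00047).

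The genes that build ribosomes gave other counts than the genes of the ribosome itself. Of 91 tested ribosome biogenesis genes (RNA polymerase I subunits, processing factors and assembly factors), 10 rose and 25 fell, and the median log2 fold change was -0.01. These shares, 11% higher and 27.5% lower, compare with 24.9% and 25.4% of all genes. The nucleolar proteins Npm1 (36.52, 36.83, 51.46 and 51.6 RPKM in the order Het, Het, Nf1-KO, Nf1-KO), Rrs1 and Rrp1 had the highest values, at 0.39, 0.39 and 0.35. Utp18, of the complex that processes the small subunit's RNA, was lowest, with 3.19 and 3.53 RPKM in Het and 1.47 and 1.5 in Nf1-KO (log2 fold change -0.87, SE 0.06, limma adjusted p = 7.9e-05). At this low level the size depends on the pseudocount, and with 0.1 added in place of 1 it was -1.21. Rrp12, an export factor, and Bms1, a GTPase of small subunit assembly, were at -0.65 and -0.47. Without scaling, the counts over this list were 24 higher and 12 lower, while 3760 and 1883 of the 10690 genes tested were. The balance of directions in the list, like that over all genes, thus depends on the scaling. Utp18, Rrp12 and Bms1 were lower and Npm1, Rrs1 and Rrp1 higher without scaling too. The difference between this list and the core members was not tested.

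**Figure D4:**
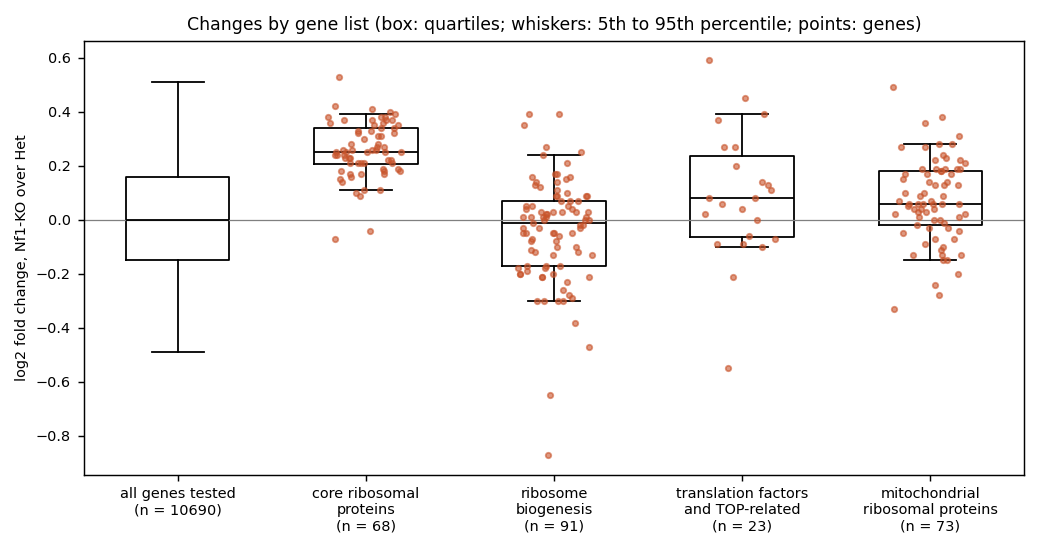
Log2 fold change of Nf1-KO over Het for all 10690 genes tested and for 4 gene lists. Boxes span the quartiles, whiskers the 5th to 95th percentile, and points are single genes. The core ribosomal proteins centre on 0.25, the biogenesis genes on -0.01, the translation factors and TOP-related genes on 0.08 and the mitochondrial ribosomal proteins on 0.06.

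A list of translation factors and other genes related to TOP regulation, most of them known for TOP messenger RNAs, gave a mixed count. It also holds Larp1 and Myc, which are regulators. Of 23 tested, 11 rose and 5 fell (47.8% and 21.7%, beside 24.9% and 25.4% of all genes), with a median of 0.08. With Larp1 and Myc left out, 11 of 21 rose and 4 fell. Without scaling 15 of the 23 rose and 1 fell, beside 35.2% of all genes higher and 1883 of 10690 lower. Npm1 is on this list too. Elongation factor Eef1a1 was 132.89 and 132.71 RPKM in Het and 207.31 and 219.31 in Nf1-KO, a log2 fold change of 0.59 (SE 0.029, limma adjusted p = 2e-05), above that of any core member. Eef2 was 403.1 and 394.46 in Het and 585.51 and 578.92 in Nf1-KO, a change of 0.45 (SE 0.018, limma adjusted p = 9.3e-06). Eef1a2, the form of eEF1A in adult muscle, was 642.52 and 643.57 in Het and 661.52 and 655.87 in Nf1-KO, a change of -0.06 that became 0.03 without scaling. Larp1, which binds the TOP tract and represses these messenger RNAs, was 29.16 and 29.62 in Het and 21.15 and 21.03 in Nf1-KO, and it fell under both choices (-0.55 and -0.46). Naca, a chaperone subunit at the ribosome exit, and Pabpc1, the poly(A) binding protein, were at -0.10 and -0.09, and did not pass without scaling (-0.01 and 0.00). Eef1a2 was chosen after its values were seen.

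The ribosomal proteins of the mitochondrion, which belong to a separate ribosome, had a smaller median change. Of 73 tested Mrpl and Mrps genes, 30 rose and 9 fell, with a median of 0.06, and the difference from the core members was not tested. That is 41.1% higher and 12.3% lower, beside 24.9% and 25.4% of all genes. Without scaling, 48 were higher and 2 lower, beside 35.2% of all genes higher and 1883 of 10690 lower.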

How the data were processed

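RNA of 2 Het and 2 Nf1-KO libraries was measured. The authors deposited 1 RPKM value per gene and library, a unit read from the values. Per the submitters' processing notes, STAR 2.4.2a, DESeq2 and build mm9 were used, with no role given; annotation, strand setting, handling of reads with several matches and depth are not given in the sources used here. The authors' deposited table has, per the file headers, a mean normalized count (a signal), a log2 fold change with its error, a test score and p-values.

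Of 34682 rows per library, 33 without a gene name were left out and the copy with the highest mean was kept, leaving 32868 names. Libraries were scaled with factors of 0.967 to 1.03 (trimmed mean of log ratios, trimming at each end 30% by ratio and 5% by abundance). The log2(RPKM + 1) values of genes reaching 0.5 RPKM in 2 or more libraries were fitted with limma 3.58.1 (R 4.3.3), using its variance trend. Its two-sided p-values were corrected over all genes tested with the Benjamini-Hochberg method. The fit was also run on simulated data with a small share of genes changed, as many up as down. That simulation does not show how the calls behave where as many genes differ as here. Means and shares used RPKM as deposited, in Python 3.11.15 with pandas 2.3.3 and scipy 1.17.1. No column lacked a sample.

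Members, gene lists and tests were chosen with earlier results of these data known. Named were the paralogue pairs, the stalk, members with roles beyond the ribosome, the 5 core members with the highest and the 5 with the lowest log2 fold change among those past the threshold with a mean of at least 5 RPKM, the 3 with the highest and the 3 with the lowest level, names listed at 0 and exceptions in direction. For the other gene lists, the 3 highest and 3 lowest values past the threshold were named. Some genes that these rules select are not reported here, but every count includes them. Unique sequence was counted as 50-base words in GENCODE M21. By that annotation 18 of the 88 members share an exon position with another gene (Rpl5, Rpl13a, Rps27a, Rps28, Rpl22l1 and Rpl30 among them), and without a stated strand setting their reads cannot be told apart.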

Additional observations from a re-analysis of the deposited data

How the results depend on the processing

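Of 466 recomputed values under 16 settings, 428 stayed on the same side of the threshold with the same sign, or moved little, 28 lost the call, 7 moved and 3 reversed. The count of higher members was 59 with no filter on low values and 65 to 72 under the other settings, and 65 to 69 with 1 library left out. The count of lower members was 1 with values as deposited, 1 with no filter, 1 with no variance trend, 1 at an adjusted p of 0.01 and 1 over the core members only. Over all genes, 1883 of 10690 were lower as deposited, 2322 of 18959 with no filter and 2649 of 10690 with no variance trend. Without scaling the median log2 fold change was 0.34, and Rpl7l1 (0.01) and Rpl10 (0.03) changed sign. With 1 library left out, Rpl22l1 ranged from -0.01 to 0.16. The difference in the share of summed RPKM was 0.726 percentage points without the 20 most abundant genes, a setting chosen, like the core members only, after seeing the data. As a ratio of Nf1-KO to Het the rise was smaller there, 1.17 against 1.24 with all names in the sum. Replicate numbers did not pair the libraries (correlation of deviations -0.018). With the replicate block 71 members were higher and 4 lower, beside 24.2% of all genes higher and 2636 of 10690 lower. The cause of these shifts was not tested. Library depth is unknown, so no counting intervals are given.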
